A study of Mus musculus with 8 samples.

Results

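The genes described here are 42 interferon response and antigen presentation genes, measured in primary mouse astrocytes that lacked RGC-32 or carried it and were given TGF-β or left untreated. They were taken by name from the table of raw counts, and all 42 were found among its 13937 genes. The names had been chosen with earlier results from the same libraries known, so the levels and fold changes of these genes are given as a description of the data and carry no test of their own.

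Interferons are secreted cytokines that reach the nucleus through receptor-bound JAK kinases and STAT transcription factors. Type I interferons assemble a complex that holds STAT2 and IRF9 on a promoter motif called the interferon-stimulated response element (ISRE), whereas type II interferon acts through the gamma-activated sequence (GAS), and IRF1 and IRF7 then widen the response. The induced genes encode RNA sensors, antiviral effectors, ubiquitin-like modifiers and GTPases, together with the machinery that cuts peptides in the immunoproteasome, moves them through the TAP transporter and loads them onto MHC class I molecules. Astrocytes carry interferon receptors and are known to respond to both types of interferon.

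The cells were cultured from the brains of C57BL/6 mice at postnatal day 1, from RGC-32 KO pups (gene *Rgcc*) and from WT pups, littermates serving as controls. After a night without serum they either stayed untreated, as the control, or received 10 ng/ml of TGF-β over 24 h. Genotype and treatment gave 4 groups with 2 biological replicates in each and 8 libraries in all. Meninges were removed and the cultures were shaken to take off oligodendrocyte precursors and neurons. The study's methods state that almost all of the cells obtained carried the astrocyte protein GFAP. The cultures could still hold a small share of other adherent cells, microglia among them.

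The libraries held 14920561 to 18956038 counts, and the 42 genes took 0.362% to 0.514% of them. *Rgcc* itself was counted 80 and 94 times in untreated WT cells and 215 and 362 times after TGF-β. Knockout cells gave 61 and 28 counts untreated and 64 and 26 after TGF-β. The TGF-β effect on *Rgcc* was 1.69 on the log2 scale in WT (edgeR adjusted p = 0.0221) and 0.12 in the knockout. Reads of *Rgcc* were thus still counted in the knockout libraries, and which part of the gene they came from was not analysed here. The 10 astrocyte markers listed were all detected, with *Gfap*, an intermediate filament protein of astrocytes, at 1196 to 2650 CPM (counts scaled to the normalised library total). All 14 microglial markers listed were detected too, and their summed level ran from 1322 to 1825 CPM. In RNA from a whole culture, fewer cells of a type and less RNA per cell cannot be told apart.

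The library labelled WT control replicate 1 stood apart for these genes. In it, 41 of the 42 genes lay above their own mean over the 8 libraries, with a median deviation of 0.29 on the log2 scale, whereas the other 7 libraries had medians between -0.10 and 0.07. RGC-32 KO control replicate 1 came next, with 33 of 42 genes above their mean. Replicate 1 exceeded replicate 2 for 40 of 42 genes in WT control and for 37 of 42 in RGC-32 KO control, where 48.6% and 50.1% of all 13509 genes tested did so. With TGF-β it did so for 17 genes in WT and 19 in RGC-32 KO. The summed microglial markers were at 1825 and 1470 CPM in untreated WT cells and at 1751 and 1579 in untreated knockout cells, each time with replicate 1 first. After TGF-β they were at 1733 and 1322 CPM in WT and at 1351 and 1518 in the knockout. Both control groups were thus higher in replicate 1 for the interferon genes and for the microglial markers, and the part of the microglial markers in the result was not tested. The counts, medians and groups of genes by role in WT are therefore given below both with WT control replicate 1 and without it.

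**Figure D1:**
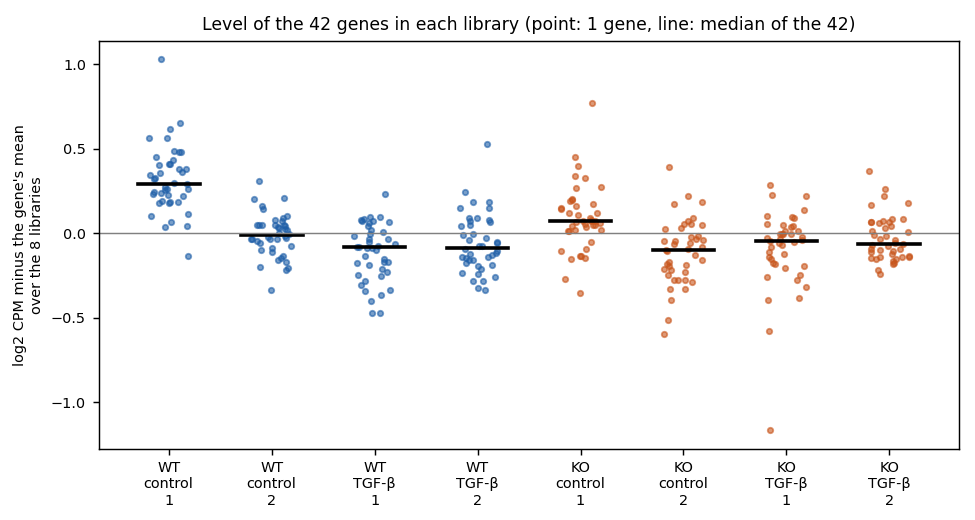
Each point is 1 of the 42 genes in 1 library, drawn as its log2 CPM minus its mean over the 8 libraries, and each line is the median of the 42 (WT in blue, RGC-32 KO in orange). The median of WT control replicate 1 lies at 0.29, and those of the other libraries lie between -0.10 and 0.07.

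The promoters of the genes on which the values below turn are shown first, so that the motif through which type I interferon acts can be seen. RefSeq promoters (build GRCm38.p6, 250 bases before to 50 after the start) were at hand for 34 of the 42 genes, and not for *Dhx58*, *Mx1*, *Usp18*, *Parp9*, *Parp14*, *Rtp4*, *Ly6e* or *Tap2*. The core ISRE letters GAAANNGAAA, or TTTCNNTTTC on the other strand, were found in 15 of the 34 promoters (44.1%), against 3.99% of the promoters of 27025 genes. The GAS letters TTCNNNGAA, which read the same on both strands and may overlap the ISRE, were found in 9 of the 34 (26.5%), against 9.55% of all promoters. These are matches of letters over genes picked for their names, not sites shown to be bound. In the stretches that follow, written 5′ to 3′ on the strand of the gene, capitals mark the ISRE letters and positions count the start base as 0.
*Ifit1*, chr19:34640729-34640888, plus strand, bases -160 to -1: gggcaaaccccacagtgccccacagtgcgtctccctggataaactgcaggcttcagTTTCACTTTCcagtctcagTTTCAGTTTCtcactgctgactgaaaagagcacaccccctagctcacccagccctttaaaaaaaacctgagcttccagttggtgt
*Ifit3*, chr19:34583369-34583528, plus strand, bases -160 to -1: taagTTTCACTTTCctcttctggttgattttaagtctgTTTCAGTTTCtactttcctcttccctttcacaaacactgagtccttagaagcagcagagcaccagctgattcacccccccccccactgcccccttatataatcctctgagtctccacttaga
*Isg15*, chr4:156200819-156200978, minus strand, bases -160 to -1: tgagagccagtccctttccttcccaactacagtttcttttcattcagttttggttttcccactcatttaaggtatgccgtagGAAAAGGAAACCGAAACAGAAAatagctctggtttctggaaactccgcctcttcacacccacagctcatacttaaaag
*Irgm1*, chr11:48871421-48871580, minus strand, bases -160 to -1: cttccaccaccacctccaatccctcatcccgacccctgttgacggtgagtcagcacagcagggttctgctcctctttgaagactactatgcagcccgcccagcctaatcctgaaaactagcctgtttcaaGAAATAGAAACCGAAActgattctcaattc
*Ifitm3*, chr7:141010715-141010744, minus strand, bases 0 to 29: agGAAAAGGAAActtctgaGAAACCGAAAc
*Psmb9*, chr17:34187331-34187555, minus strand, bases -225 to -1: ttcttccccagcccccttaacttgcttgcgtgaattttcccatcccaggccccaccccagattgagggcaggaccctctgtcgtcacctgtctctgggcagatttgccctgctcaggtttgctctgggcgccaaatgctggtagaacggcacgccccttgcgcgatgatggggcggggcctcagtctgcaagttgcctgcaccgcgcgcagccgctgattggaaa

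*Ifit1* and *Ifit3* carried the same pair of 10-base matches, TTTCACTTTC and TTTCAGTTTC, spaced differently. *Isg15* held 3 overlapping matches between bases -78 and -57, and *Irgm1* 2 overlapping matches between -30 and -15. The matches of *Ifitm3* lay just after the start, from base 2 to base 28. *Psmb9* and *Tap1* start 226 bases apart on opposite strands, so the stretch printed for *Psmb9* is all that lies between the RefSeq starts of both genes, and it held neither set of letters.

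**Figure D2:**
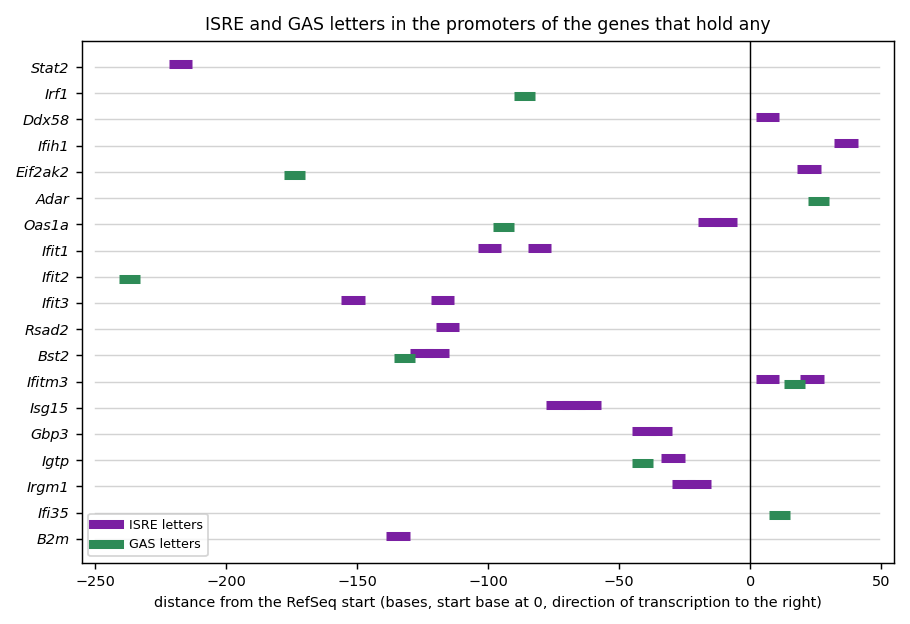
Each row is a gene with at least 1 match, and the horizontal axis is the distance in bases from the RefSeq start, 250 bases before it to 50 after (purple, ISRE letters; green, GAS letters). ISRE matches of *Ifit1*, *Ifit3*, *Rsad2*, *Bst2* and *B2m* end at or before base -76, whereas those of *Ddx58*, *Ifih1*, *Eif2ak2* and *Ifitm3* lie after the start.

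Genes with and without the ISRE letters moved alike in WT, where 13 of 15 and 17 of 19 were lower with TGF-β. Without WT control replicate 1, 8 and 10 of them were lower. In WT, the median log2 fold change of TGF-β minus control was -0.28 over the 15 genes with the letters (range -0.75 to 0.62) and -0.18 over the 19 without (range -0.68 to 0.07). The WT medians were -0.07 and -0.02 without WT control replicate 1. In RGC-32 KO the medians were 0.02 and -0.03.

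The levels of the 42 genes spanned a wide range per length. Mean FPKM (fragments scaled by transcript length and by library size, averaged over the 8 libraries) was 1606 for *B2m*, the invariant light chain of MHC class I, and 557 for *Ifitm3*, a membrane protein that hinders virus entry. *Bst2* (tetherin, which holds virions at the cell surface) followed at 125, *Tapbp* (tapasin, which bridges TAP and MHC class I) at 111 and *Lgals3bp*, a secreted glycoprotein, at 88.3. The lowest were *Rsad2* (viperin, an antiviral enzyme) at 1.90 and *Mx1*, an antiviral GTPase, at 0.83. No gene had fewer than 20 counts in any library, untreated cells included.

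The first comparison asked how the genes stood after 24 h of TGF-β in WT astrocytes. In WT, 38 of the 42 genes were lower with TGF-β and 4 were higher, with a median log2 fold change of -0.22 beside -0.005 over all genes, of which 50.6% were lower. A gene was called when its adjusted p was under 0.05 and its log2 fold change reached 0.6 in size (edgeR quasi-likelihood test, Benjamini-Hochberg adjustment over all 13509 genes), and by this rule 4 members were lower and 1 was higher. Of all genes, 5.65% were called lower and 7.72% higher under the same rule. The 4 were *Ifit1*, *Ifit3*, *Ifitm3* and *Psmb9*, and the 1 was *Irgm1*. With no minimum fold, 14 members were lower and 1 was higher at an adjusted p under 0.05, against 14.3% and 18.6% of all genes. Both TGF-β libraries lay below both control libraries for 22 members and above them for 2, against 33.7% and 35.4% of all genes.

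These counts rested on WT control replicate 1. Without that library, 23 of the 42 genes were lower and 19 higher, the median was -0.05, and 1 member was called lower (*Ifit2*) and 1 higher (*Irgm1*). Without WT control replicate 2 instead, the median was -0.44, and 10 members were called lower and 0 higher. With upper quartile scaling, 5 were called lower and 0 higher.

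Markers of the cell types in the culture moved with TGF-β too. Of the 10 astrocyte markers, 9 were lower in WT (median -0.39) and 8 in RGC-32 KO (median -0.40), and 7 and 6 of these were lower at an adjusted p under 0.05. Their summed level was 4620 and 4847 CPM in untreated WT cells and 3705 and 3585 after TGF-β, and in the knockout 5342 and 6005 untreated and 4384 and 4716 after TGF-β. Of the 14 microglial markers, 10 were lower in WT (median -0.27) and 12 in RGC-32 KO (median -0.28), with none lower at an adjusted p under 0.05. Of the 7 meningeal fibroblast markers tested, 4 were lower and 3 higher in each genotype. The summed level of that list was 4314 and 5585 CPM in untreated WT cells and 8746 and 9829 after TGF-β. In the knockout it was 3706 and 3553 untreated and 6637 and 6479 after TGF-β. Summed oligodendrocyte and neuronal markers were also higher with TGF-β in both genotypes, and endothelial ones lower, but genes within each list moved both ways. Of the 8 oligodendrocyte markers tested, 5 were higher in WT and 4 in RGC-32 KO, and of the 5 neuronal ones 4 and 3. Of the 6 endothelial markers tested, 3 were lower in WT and 4 in RGC-32 KO. The part of any of these lists in the values of the 42 genes was not tested.

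In RGC-32 KO astrocytes the same comparison was nearly even. There, 22 of the 42 genes were lower with TGF-β and 20 were higher, with a median of -0.03 beside 0.003 over all genes, of which 49.5% were lower. *Psmb9* was the 1 member called lower and *Irgm1* the 1 called higher, against 4.93% and 6.61% of all genes. With no minimum fold, 4 members were lower (*Ifit2*, *Igtp*, *Tap2* and *Psmb9*) and 2 higher (*Eif2ak2* and *Irgm1*), against 11.8% and 16.6% of all genes. Both TGF-β libraries lay below both control libraries for 14 members and above them for 7, against 32.9% and 34.3% of all genes.

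**Figure D3:**
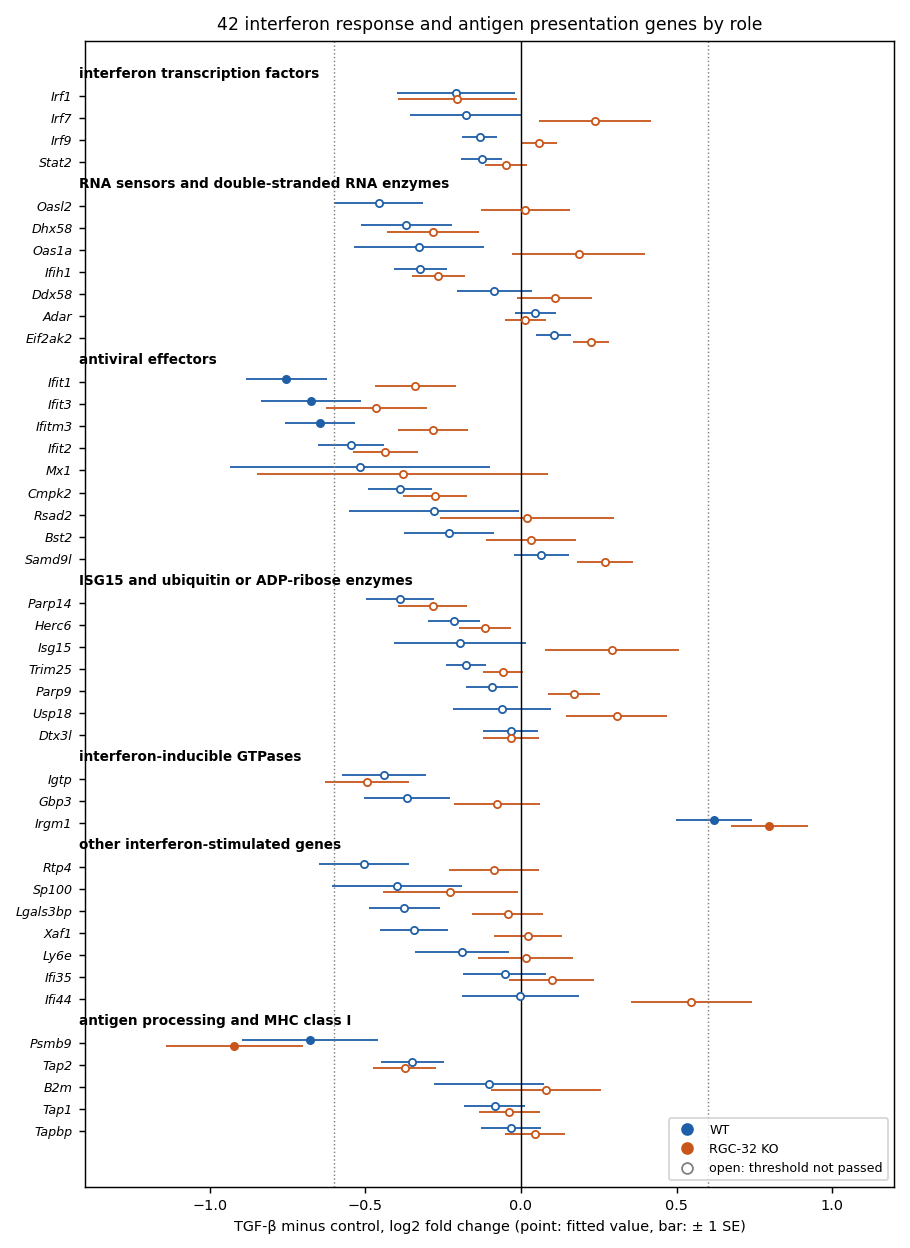
Each row is 1 of the 42 genes, grouped by role, with the fitted log2 fold change of TGF-β minus control and its standard error in WT (blue) and RGC-32 KO (orange). Filled points passed the threshold and dotted lines mark -0.6 and 0.6: *Ifit1*, *Ifit3*, *Ifitm3*, *Psmb9* and *Irgm1* are filled in WT, and *Psmb9* and *Irgm1* in RGC-32 KO.

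Among the transcription factors, none of the 4 genes was called in either genotype. *Stat2*, a subunit of the ISRE-binding complex, was at 79.3 and 73.8 CPM in untreated WT cells and 68.2 and 72.0 after TGF-β. Knockout cells held 70.6 and 65.3 CPM untreated and 64.3 and 67.1 after TGF-β. Its log2 fold change was -0.13 (SE 0.07) in WT, where the groups did not overlap, and -0.05 (SE 0.07) in RGC-32 KO, where they did. *Irf9*, the DNA-binding subunit of that complex, was at 58.7 and 59.0 CPM in untreated WT cells and 53.9 and 53.5 after TGF-β, and in the knockout at 57.7 and 55.6 untreated and 60.7 and 57.3 after TGF-β. It thus changed by -0.13 (SE 0.06) in WT, again without overlap, and by 0.06 (SE 0.06) in RGC-32 KO.

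*Irf7* amplifies type I interferon production. Untreated WT cells held 41.0 and 28.2 CPM and treated WT cells 29.2 and 32.0, while untreated knockout cells held 34.8 and 27.2 and treated ones 38.4 and 34.6. Its groups overlapped in both comparisons. Its log2 fold changes were -0.18 (SE 0.18) in WT, or 0.11 without WT control replicate 1, and 0.24 (SE 0.18) in RGC-32 KO. *Irf1*, the factor induced by type II interferon, stood at 62.9 and 47.7 CPM in untreated WT cells and 41.7 and 54.2 in treated ones, with 65.1 and 47.0 in untreated knockout cells and 49.0 and 48.2 in treated ones. Replicate 1 was the high library of both control groups, and the fold changes were -0.21 (SE 0.19) and -0.20 (SE 0.19). The WT value was 0.004 without WT control replicate 1, and of the 4 factors 2 were lower and 2 higher, where all 4 had been lower with it.

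The 7 RNA sensors and enzymes of double-stranded RNA held no called member in either genotype. In WT their log2 fold changes ran from -0.46 for *Oasl2*, an oligoadenylate synthetase-like protein, to 0.11 for *Eif2ak2* (PKR, the kinase that halts translation on double-stranded RNA). The value of *Oasl2* was -0.23 without WT control replicate 1, and 3 of the 7 were lower in place of 5. In RGC-32 KO they ran from -0.28 for *Dhx58* (LGP2) to 0.22 for *Eif2ak2*. *Eif2ak2* was at 85.2 and 82.2 CPM in untreated WT cells and 87.8 and 92.3 after TGF-β, and at 75.5 and 71.3 in untreated knockout cells and 86.0 and 85.6 after TGF-β. Both TGF-β libraries of each genotype were therefore above both controls, with log2 fold changes of 0.11 (SE 0.06) in WT and 0.22 (SE 0.06) in RGC-32 KO. *Ddx58* (RIG-I) and *Ifih1* (MDA5), the cytoplasmic RNA helicases, had -0.09 (SE 0.12) and -0.32 (SE 0.08) in WT and 0.11 (SE 0.12) and -0.27 (SE 0.09) in RGC-32 KO. *Adar*, which edits adenosines in double-stranded RNA, stayed between 84.2 and 97.9 CPM in all 8 libraries.

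The antiviral effectors had the lowest median of all roles in both genotypes. Of its 9 genes 8 were lower with TGF-β in WT (median -0.52, *Samd9l* excepted) and 6 in RGC-32 KO (median -0.28), and 3 of the 4 members called lower in WT belonged to it. With WT control replicate 1 left out, 6 of the 9 were lower in WT and the median was -0.32. *Ifit1*, which binds viral RNA that lacks host-type caps, lies on the plus strand at chr19:34640871-34650009. It was at 81.1 and 61.2 CPM in untreated WT cells and 40.1 and 44.3 after TGF-β, and in the knockout at 61.1 and 54.8 untreated and 44.3 and 47.2 after TGF-β. The groups did not overlap in either genotype, and WT control replicate 1 was the highest of all libraries. The log2 fold change was -0.75 (SE 0.13) in WT and -0.34 (SE 0.13) in RGC-32 KO, and it was -0.54 in WT without WT control replicate 1, short of the fold threshold.

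*Ifit3*, a partner of *Ifit1* in the same gene cluster (chr19:34583531-34588731), was at 156 and 128 CPM in untreated WT cells and 80.4 and 97.7 after TGF-β. Knockout cells held 147 and 116 CPM untreated and 84.8 and 106 after TGF-β. Control libraries were again above TGF-β libraries in both genotypes, and the difference on the log2 scale was -0.67 (SE 0.16) in WT and -0.47 (SE 0.16) in RGC-32 KO. Without WT control replicate 1 the WT value was -0.53, and without WT TGF-β replicate 1 it was also -0.53, each past neither the fold nor the adjusted p threshold. *Ifit2*, a further member of the cluster, stood at 68.0 and 73.8 CPM in untreated WT cells and 50.1 and 47.1 in treated ones, and at 62.7 and 78.0 in untreated knockout cells and 50.2 and 53.9 in treated ones. Unlike *Ifit1* and *Ifit3*, it was not highest in WT control replicate 1. Its fold changes, -0.55 (SE 0.11) and -0.44 (SE 0.11), did not reach the fold threshold, though the WT value without WT control replicate 1 was -0.60 and passed. Reads of *Ifit3* can be shared with its near copy *Ifit3b*, and those of *Ifit1* with *Ifit1bl1* and *Ifit1bl2*, so the split between copies is uncertain.

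*Ifitm3* (chr7:141009586-141010770, minus strand) was at 372 and 304 CPM in untreated WT cells and 215 and 217 after TGF-β, and at 329 and 277 in untreated knockout cells and 257 and 241 after TGF-β. The groups did not overlap in either genotype. The log2 fold change was -0.65 (SE 0.11) in WT, or -0.49 without WT control replicate 1, and -0.28 (SE 0.11) in RGC-32 KO. *Samd9l*, a restriction factor of poxviruses, had positive values, with 97.4 and 84.0 CPM in untreated and 92.1 and 97.7 in treated WT cells, and 77.4 and 68.4 in untreated and 86.0 and 89.7 in treated knockout cells. Its fold changes were 0.07 (SE 0.09) with overlapping groups in WT and 0.27 (SE 0.09) without overlap in RGC-32 KO. *Cmpk2*, *Bst2*, *Rsad2* and *Mx1* had -0.39, -0.23, -0.28 and -0.52 in WT, the last with an SE of 0.42 between 2.98 and 6.26 CPM in the WT control libraries. Without WT control replicate 1 the values of these genes were -0.32, -0.08, 0.13 and 0.10.

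The 7 genes of the ISG15 and ubiquitin or ADP-ribose group held no called member. All 7 were lower with TGF-β in WT, between -0.39 (*Parp14*) and -0.03 (*Dtx3l*), and in RGC-32 KO they ran from -0.28 (*Parp14*) to 0.31 (*Usp18*, the protease that removes ISG15). Leaving out WT control replicate 1, 4 of the 7 were lower in WT, and *Dtx3l*, *Isg15* and *Usp18* were at 0.08, 0.10 and 0.21. *Isg15* encodes the ubiquitin-like modifier itself. Its level was 42.7 and 29.3 CPM in untreated WT cells and 28.0 and 34.9 after TGF-β, and in the knockout 33.9 and 24.9 untreated and 32.6 and 39.3 after TGF-β. The groups overlapped in both genotypes, and the fold changes were -0.20 (SE 0.21) in WT and 0.29 (SE 0.22) in RGC-32 KO. *Parp9* and *Dtx3l*, partners in ADP-ribosylation, overlap by 682 bases on opposite strands, and the libraries were unstranded, so reads in that stretch cannot be told apart.

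The 3 interferon-inducible GTPases differed in direction. *Irgm1*, a GTPase of autophagy and defence against intracellular microbes (chr11:48861968-48871683, minus strand), was at 106 and 91.6 CPM in untreated WT cells and 136 and 167 after TGF-β. Knockout cells held 90.5 and 76.6 CPM untreated and 141 and 149 after TGF-β. Every TGF-β library was above every control library, and the log2 fold change was 0.62 (SE 0.12) in WT and 0.80 (SE 0.12) in RGC-32 KO. In RGC-32 KO it stayed past the threshold under all 20 alternatives run, between 0.68 and 0.91. In WT it fell short of the fold threshold under 5 of them, with 0.53 under upper quartile scaling, 0.40 and 0.41 on FPKM, 0.50 without WT control replicate 2 and 0.45 without WT TGF-β replicate 2.

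*Igtp*, of the same GTPase family, was lower in both genotypes, at -0.44 (SE 0.13) and -0.49 (SE 0.13), with no overlap between groups. *Gbp3*, a guanylate-binding protein, had -0.37 (SE 0.14) in WT and -0.08 (SE 0.14) in RGC-32 KO. The WT values of *Igtp* and *Gbp3* were -0.24 and -0.11 without WT control replicate 1. The annotated locus of *Igtp* shares 7974 bases with *Irgm2* on the same strand, so the counts of both are uncertain.

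The other 7 interferon-stimulated genes held no called member, and all 7 were below 0 in WT, from -0.50 (*Rtp4*, a chaperone of receptors) to -0.002 (*Ifi44*). In WT without control replicate 1, 4 of the 7 were below 0, and *Ly6e*, *Ifi35* and *Ifi44* were at 0.02, 0.08 and 0.33. In RGC-32 KO they ran from -0.23 (*Sp100*, a nuclear body protein) to 0.55 (*Ifi44*). *Ifi44*, an interferon-induced protein, stood at 36.3 and 23.8 CPM in untreated WT cells and 27.5 and 32.4 in treated ones, and at 22.7 and 19.2 in untreated knockout cells and 29.3 and 31.9 in treated ones. WT control replicate 1 was the highest of all libraries, and the groups overlapped in WT but not in the knockout. Its SE was 0.19 in both genotypes.

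The 5 genes of antigen processing and MHC class I separated into *Psmb9* and *Tap2* on one side and *Tap1*, *Tapbp* and *B2m* on the other. *Psmb9* (chr17:34181987-34187764, minus strand) encodes a catalytic subunit of the immunoproteasome, which cuts peptides for MHC class I. It was at 19.9 and 15.2 CPM in untreated WT cells and 10.2 and 11.7 after TGF-β, and at 24.3 and 16.6 in untreated knockout cells and 9.51 and 12.02 after TGF-β. Every TGF-β library was below every control library. The log2 fold change was -0.68 (SE 0.22) in WT and -0.92 (SE 0.22) in RGC-32 KO. The WT call was close to the threshold and was lost under 8 of 20 alternatives (-0.47 without WT control replicate 1, and -0.67 with the replicate number as a block), and the RGC-32 KO call was lost without control replicate 1 (-0.64) and without TGF-β replicate 1 (-0.76).

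*Tap1*, a subunit of the peptide transporter, stood at 87.3 and 77.7 CPM in untreated WT cells and 80.4 and 75.1 in treated ones, and at 81.6 and 67.6 in untreated knockout cells and 74.0 and 71.3 in treated ones. The groups overlapped in both genotypes, with fold changes of -0.08 (SE 0.10) and -0.04 (SE 0.10). *Tap1* and *Psmb9* thus had unlike values from neighbouring starts, and their annotated loci share 212 bases on opposite strands, where unstranded reads cannot be assigned. *Tap2*, the partner subunit, was lower without overlap in both genotypes, at -0.35 (SE 0.10) and -0.37 (SE 0.10), short of the fold threshold. Its WT value was -0.23 without WT control replicate 1.

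*B2m* stood at 1539 and 1152 CPM in untreated WT cells and 1289 and 1217 in treated ones, and at 1506 and 1139 in untreated knockout cells and 1537 and 1262 in treated ones. Replicate 1 was above replicate 2 in all 4 groups, and the groups overlapped. Its fold changes were -0.10 (SE 0.18) and 0.08 (SE 0.18). *Tap1*, *Tapbp* and *B2m* were at 0.003, 0.07 and 0.12 in WT without WT control replicate 1, so that 2 of the 5 genes of this group were lower in place of all 5.

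**Figure D4:**
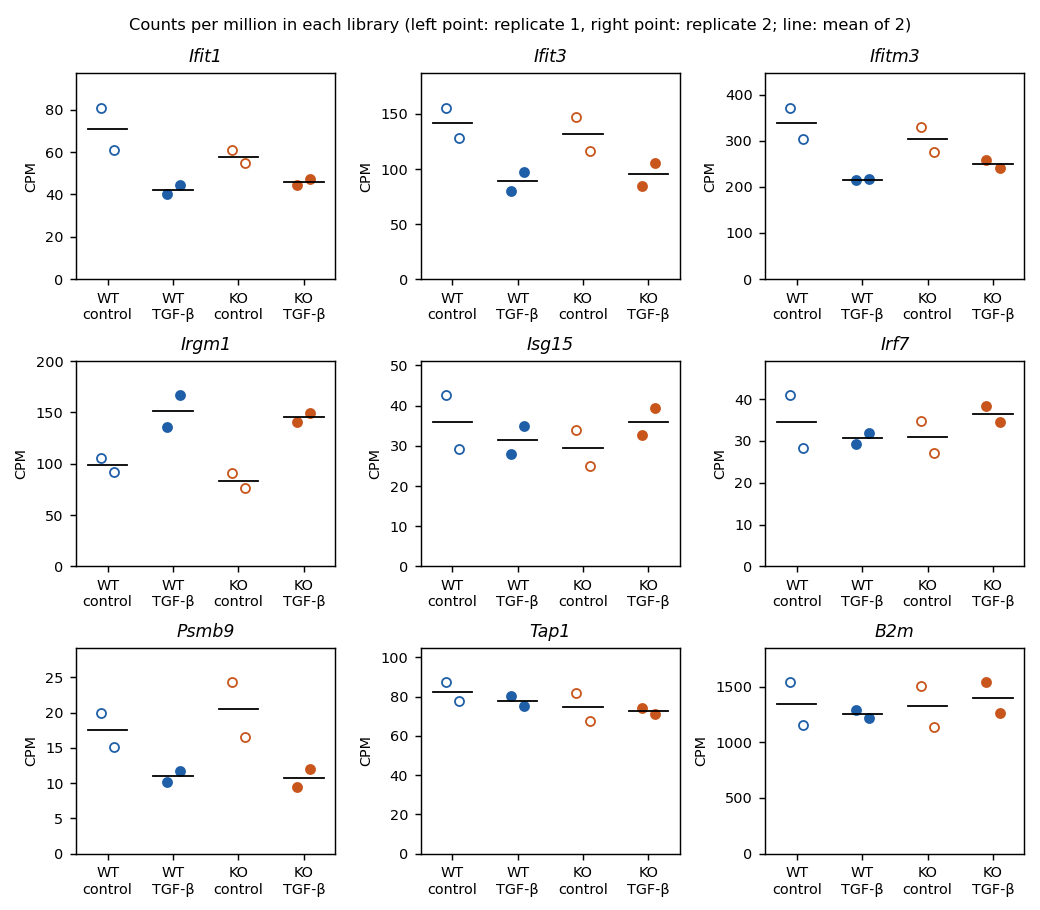
CPM of 9 of the genes in each library, with the mean of the 2 replicates as a line (open, control; filled, TGF-β; blue, WT; orange, RGC-32 KO). *Ifit1*, *Ifit3*, *Ifitm3* and *Psmb9* lie lower and *Irgm1* higher with TGF-β in both genotypes without overlap, whereas the groups of *Isg15*, *Irf7*, *Tap1* and *B2m* overlap.

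The genotypes were then compared directly. In control cells the WT level exceeded the knockout level for 38 of the 42 genes and for 52.4% of all genes, and the members' median log2 difference was 0.16. None was called by edgeR, DESeq2 or limma-voom, and the background was 0.0074% of genes called higher and 0.0296% lower. At an unadjusted p under 0.05 there were 6 members by edgeR (*Stat2*, *Eif2ak2*, *Oasl2*, *Samd9l*, *Trim25* and *Ifi44*), 6 by DESeq2 and 5 by limma-voom, where 6.84% of all genes reached that by edgeR. Both WT libraries lay above both RGC-32 KO libraries for 9 members and below them for 0, against 17.4% and 15.5% of all genes. Without WT control replicate 1, 22 genes were higher and 20 lower, with a median of 0.003. Without RGC-32 KO control replicate 1 instead, 39 were higher and 3 lower (median 0.28). With control replicate 1 of both genotypes left out, a setting added after seeing the data, 31 were higher and 11 lower (median 0.09). In the same control cells 9 of the 10 astrocyte markers were lower in WT (median -0.21), and 6 of the 7 meningeal fibroblast markers tested were higher (median 0.39). At an unadjusted p under 0.05 were 4 markers of each list. With their summed level at 4314 and 5585 CPM in WT and 3706 and 3553 in the knockout, the fibroblast markers did not overlap between the genotypes, and the part of these markers in the difference of the 42 genes was not tested.

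With TGF-β, 26 of the 42 genes were lower in WT than in RGC-32 KO and the median difference was -0.03, where 50.1% of all genes were lower. None was called by any of the same 3 tools, against 0.0222% of all genes called in each direction. At an unadjusted p under 0.05 edgeR gave 2 members, *Irf9* at -0.14 (SE 0.06) and *Trim25*, the ubiquitin ligase of RIG-I, at 0.18 (SE 0.06), while DESeq2 gave 0 and limma-voom 2. The share over all genes was 11.7%. Both WT libraries lay below both RGC-32 KO libraries for 12 members and above for 7, against 23.9% and 22.4% of all genes.

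Whether the TGF-β effect differed between genotypes was tested by the interaction of genotype and treatment. The WT effect was below the RGC-32 KO effect for 38 of 42 genes (52.3% of all genes), with a median difference of -0.18. No gene of the 13509 was called, so the background was 0%, and at an unadjusted p under 0.05 there were 3 members by edgeR (*Irf9* at -0.19, *Oasl2* at -0.47 and *Xaf1* at -0.37), 4 by DESeq2 and 2 by limma-voom, against 2.82% of all genes by edgeR. Without WT control replicate 1 the median was -0.04, with 25 genes below 0 and 17 above. Without RGC-32 KO control replicate 1 instead, it was -0.30, with 39 below and 3 above. With control replicate 1 of both genotypes left out, it was -0.14, with 32 below and 10 above. An effect past the threshold in WT and not in RGC-32 KO, as for *Ifit1*, *Ifit3* and *Ifitm3*, was thus not shown to differ between the genotypes. The interaction values of those genes were -0.42 (SE 0.18), -0.21 (SE 0.23) and -0.36 (SE 0.16).

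The rest of the pathway was taken from a further list of 129 genes, of which 116 were in the count table and all 116 were tested. In WT 8 were called lower and 3 higher, and in RGC-32 KO 3 were called lower and 4 higher, with medians of -0.22 and -0.09. Over all genes the shares called lower and higher were 5.65% and 7.72% in WT and 4.93% and 6.61% in RGC-32 KO. The WT count of lower genes was 4 without WT control replicate 1 (median -0.07), 24 without WT control replicate 2 and 18 under upper quartile scaling.

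Ligands and receptors showed no called gene. *Ifnb1*, the type I interferon of most cell types, was not among the genes of the count table, and its mean FPKM was 0.013. The receptor chains *Ifnar1* and *Ifngr2* had log2 fold changes of 0.22 (SE 0.06) and 0.32 (SE 0.09) in WT and 0.20 (SE 0.06) and 0.37 (SE 0.09) in RGC-32 KO, below the fold threshold. Their edgeR adjusted p-values were 0.0303 and 0.0308 in WT and 0.0453 and 0.0214 in RGC-32 KO. *Ifnar2* had -0.007 and -0.07, and *Ifngr1* -0.06 and -0.07. None of the 10 JAK-STAT genes was called.

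The further interferon-stimulated genes held most of the calls. *Ifitm1*, of the same family as *Ifitm3*, was at 40.6 and 31.6 CPM in untreated WT cells and 10.7 and 14.9 after TGF-β, and at 34.6 and 28.5 in untreated knockout cells and 16.8 and 14.5 after TGF-β. On the log2 scale it fell by 1.50 in WT (SE 0.19, edgeR adjusted p = 0.00113) and by 1.01 in the knockout (SE 0.19, edgeR adjusted p = 0.00661), and both calls held under all 20 alternatives. *Gbp2*, a guanylate-binding protein, was at 179 and 149 CPM in untreated WT cells and 81.9 and 96.7 after TGF-β, and at 190 and 143 in untreated knockout cells and 97.8 and 99.7 after TGF-β. It fell by 0.88 in WT (SE 0.15, edgeR adjusted p = 0.00381) and by 0.75 in the knockout (SE 0.15, edgeR adjusted p = 0.00834), where the value without control replicate 1 was -0.55.

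*Ifit3b*, *Ifit1bl1* and *Ifit1bl2*, copies of the *Ifit* genes above, fell by 0.82, 0.94 and 1.29 in WT, the last pair between 1.15 and 2.92 CPM there. *Ifit1bl2* also fell by 0.88 in RGC-32 KO, a call lost under 9 of 20 alternatives. *Ifi203*, of the DNA-binding p200 family, fell by 0.74, and the GTPases *Irgm2* and *Iigp1* by 0.64 each in WT. Without WT control replicate 1 the calls of *Ifi203*, *Irgm2* and *Iigp1* were lost at folds of -0.55, -0.48 and -0.36. *Ifit1bl1* had a fold of -1.004 there and lost its call by its p-value alone. The *Ifit1bl1* call was also lost without any other single WT library, by DESeq2 and on FPKM with a pseudocount of 1. *Iigp1* lost its call under 9 of 20 alternatives. *Ifi209*, also of the p200 family, rose by 0.68 in RGC-32 KO, between 2.55 and 4.49 CPM, a call that 16 of 20 alternatives did not give.

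*Ifi30*, the lysosomal thiol reductase that opens disulphide bonds of antigens for MHC class II, rose in both genotypes. Its level was 34.0 and 23.5 CPM in untreated WT cells and 65.7 and 81.1 after TGF-β, and 32.5 and 21.0 in untreated knockout cells and 51.2 and 66.3 after TGF-β. It rose by 1.35 on the log2 scale in WT (SE 0.24, edgeR adjusted p = 0.00475) and by 1.14 in the knockout (SE 0.24, edgeR adjusted p = 0.0117), the latter 0.86 without control replicate 2 and 0.92 without TGF-β replicate 2, each with an adjusted p above the threshold. *Sp140*, a nuclear body protein, rose by 0.62 in WT (SE 0.12, edgeR adjusted p = 0.00652), a call lost under 4 of 20 alternatives (0.44 without WT control replicate 2), and had 0.54 (SE 0.12) in the knockout, short of the fold threshold.

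None of 15 further genes of MHC class I and antigen processing was called. The heavy chains *H2-K1* and *H2-D1* had -0.15 and -0.12 in WT and 0.003 and 0.07 in RGC-32 KO. *Psmb8*, another immunoproteasome subunit, had -0.54 (edgeR adjusted p = 0.0564) in WT and -0.33 (edgeR adjusted p = 0.216) in RGC-32 KO. The WT values of *H2-K1*, *H2-D1* and *Psmb8* were 0.15, 0.13 and -0.26 without WT control replicate 1. The heavy chains share sequence, so reads may be split between them and other H2 genes. The chaperones *Calr*, *Canx* and *Pdia3*, which fold many glycoproteins besides MHC class I, were at 0.58, 0.44 and 0.52 in WT and 0.54, 0.43 and 0.56 in RGC-32 KO, with adjusted p-values between 0.004 and 0.0102 but below the fold threshold.

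Of the 6 MHC class II genes, *H2-Ab1* rose in both genotypes and *H2-DMb1* in RGC-32 KO. *H2-Ab1*, a class II beta chain, was at 1.29 and 2.09 CPM in untreated WT cells and 3.26 and 3.01 after TGF-β, and at 1.40 and 1.24 in untreated knockout cells and 2.95 and 2.58 after TGF-β. It rose by 0.88 in WT (SE 0.26, edgeR adjusted p = 0.0324) and by 1.06 in the knockout (SE 0.27, edgeR adjusted p = 0.024), calls lost under 10 and 7 of the 20 alternatives. *H2-DMb1*, a peptide exchange factor of class II, rose by 0.65 (SE 0.16, edgeR adjusted p = 0.0226) and lost its call under 7 of them. Class II is a feature of microglia more than of astrocytes, and among the 14 microglial markers *Tmem119* was called higher in both genotypes (0.99 and 0.68) and none lower, with medians of -0.27 and -0.28, and the part of this in the class II values was not tested.

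**Figure D5:**
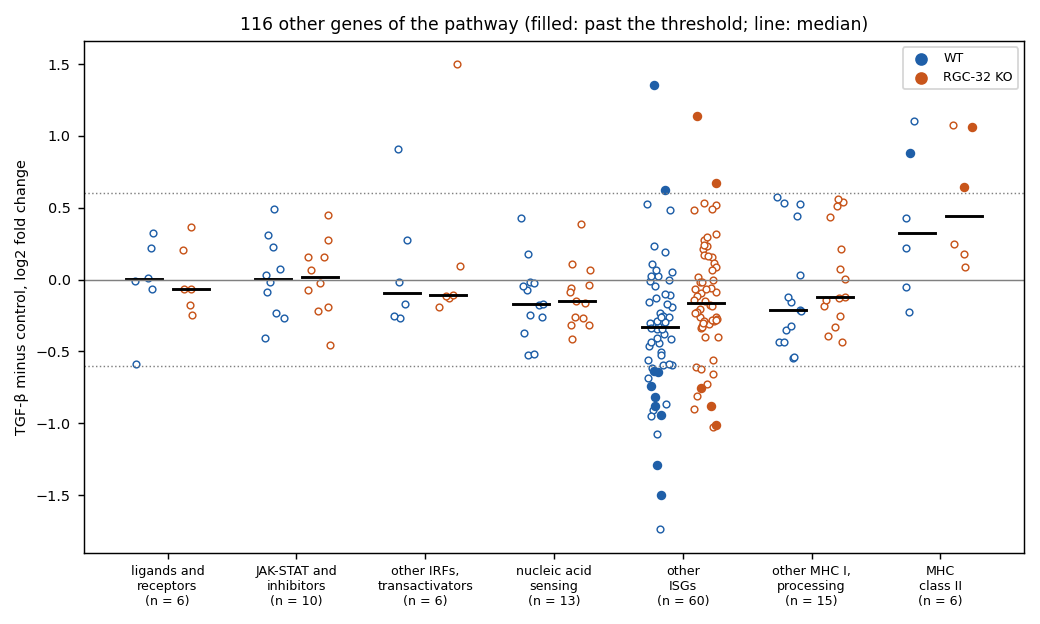
Each point is 1 of 116 other genes of the pathway, by list, with its log2 fold change of TGF-β minus control in WT (blue) and RGC-32 KO (orange), and lines give medians. Filled points passed the threshold, 8 lower and 3 higher in WT and 3 lower and 4 higher in RGC-32 KO, and they lie among the other interferon-stimulated genes and MHC class II.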

How the data were processed

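RNA of WT and RGC-32 KO astrocytes, untreated or given TGF-β, was sequenced unstranded in 8 libraries. By the study's methods the authors aligned reads with STAR in the VIPER pipeline, to mm10 by the submitters' processing notes, and deposited whole-number counts per gene symbol, not normalized. The program that counted the reads, the annotation and tool versions are not given in the sources used here. The authors also deposited FPKM values from Cufflinks for 18644 genes, used here for levels per length and for an alternative. A further pair of deposited tables, with the authors' fold changes and p-values from DESeq, was not used. The columns were matched to samples by name, and gene symbols are printed in mouse case.

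The count analysis used edgeR 4.0.16 under R 4.3.3. Genes were kept by filterByExpr, which left 13509 of 13937 and all 42 members. TMM factors scaled the libraries, and 1 quasi-likelihood model over all 8 libraries gave each group its mean. The effect of TGF-β was taken within each genotype, the genotypes were compared within each treatment, and the interaction was tested. Two-sided p-values received the Benjamini-Hochberg adjustment across every gene tested. A call needed an adjusted p under 0.05 with a log2 fold change of 0.6 or more in size. These cut-offs are those of the study's methods, where the test was DESeq2 with a Bonferroni correction named, not the edgeR test used here. SE denotes the standard error of a fitted log2 value. DESeq2 1.42.0, limma 3.58.1 (voom, and limma on log2 FPKM with a pseudocount of 1 or 0.1), other scalings and filters, the replicate number as a block, and leaving out each library were alternatives. The count test was tested on simulated counts before use. Replicates differed by more than counting noise in all 4 groups (chi-square per degree of freedom 6.26 to 10.4), so none was one library deposited more than once. The p-values rest on a spread estimated over all 8 libraries together, with 2 biological replicates per group. The main fit held no term for the replicate number.

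The members, the pathway list and the marker lists were chosen with earlier results of these data known. Named in full were the 4 members with the largest mean fold change over both genotypes in each direction, those called with TGF-β in either genotype, and *Stat2*, *Irf9*, *Irf7*, *Irf1*, *Isg15*, *B2m*, *Tap1* and *Psmb9*. Of other pathway genes, those called in either TGF-β comparison were named, with *H2-K1*, *H2-D1*, *Psmb8*, the receptor chains and *Ifnb1*, and 1 further gene fixed for naming is not reported here. Loci are from GENCODE M21 (GRCm38, the assembly also called mm10), joined by symbol, and promoters from RefSeq (GRCm38.p6). Figures were drawn with matplotlib 3.10.9 under Python 3.11.15.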

Additional observations from a re-analysis of the deposited data

How the results depend on the processing

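For the 42 genes, calls lower and higher were 4 and 1 in WT and 1 and 1 in RGC-32 KO. Leaving out 1 library at a time gave 1 to 10 lower and 0 to 1 higher in WT, and 0 to 2 lower and 1 higher in RGC-32 KO. With no fold threshold the counts were 14 lower in WT, and 4 lower and 2 higher in RGC-32 KO. *Irgm1* in WT was lost, leaving 0 higher, under upper quartile scaling and with FPKM at either pseudocount. In the genotype and interaction comparisons 0 members were called by edgeR under every alternative, and by DESeq2 and limma-voom. For the 116 other pathway genes, calls were 8 lower and 3 higher in WT and 3 lower and 4 higher in RGC-32 KO. Leaving out 1 library gave 4 to 24 and 2 to 4 in WT, and 2 to 3 and 0 to 8 in RGC-32 KO. In WT, upper quartile scaling gave 18 lower, no fold threshold 20 lower and 13 higher, FPKM with a pseudocount of 0.1 gave 17 lower and with 1 gave 1 higher. In RGC-32 KO, higher calls were 1 with DESeq2 and with FPKM at a pseudocount of 1, and 2 with only the 4 libraries of the comparison, with upper quartile scaling and with the replicate block. With no fold threshold there were 6 lower and 14 higher. The cause was not tested, beyond the missing threshold and the fewer libraries.

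Over all genes, 57.8% of WT calls and 57.3% of RGC-32 KO calls were higher, against 44.8% and 45.5% with upper quartile scaling. Deviations of same-numbered libraries correlated within a treatment (0.54 in control, 0.26 with TGF-β) and went opposite ways across treatments (-0.32 to -0.47). The sample labels do not say how replicates pair, and whether the numbers are crossed between treatments was not tested. The replicate block took the all-gene calls in WT down to 1616 of 1806 and those in RGC-32 KO to 1369 of 1559, with the loss of *Psmb9* in WT among the 42 genes. A crossed replicate block, added after seeing the data, left the members' calls at 4 and 1 in WT and 1 and 1 in RGC-32 KO, with 14 other genes lower in WT and 6 in RGC-32 KO. Over all genes it gave 2105 calls in WT, 1852 in RGC-32 KO, and 10 and 36 between genotypes in control and with TGF-β, where the fit with no block gave 5 and 6, and none of these was among the 42 genes. Leaving out control replicate 1 of both genotypes, also added after seeing the data, gave 1 member lower in WT and 2 lower and 2 higher in RGC-32 KO, with 4 other genes lower in WT and 1 lower and 9 higher in RGC-32 KO. With 2 libraries a group, genes at a few CPM (*Mx1*, *Ifit1bl1*, *H2-Ab1*) had SEs of 0.25 or more.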

Other observations

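For some of the guanylate-binding proteins, replicates of a group differed strongly. *Gbp4* was at 41.1 and 16.2 CPM in untreated WT cells and 0.77 and 16.9 after TGF-β, and at 30.7 and 15.1 in untreated knockout cells and 5.76 and 16.6 after TGF-β. *Gbp6* stood at 159 and 91.8 CPM in untreated WT cells and 35.3 and 84.0 in treated ones, and at 169 and 91.4 in untreated knockout cells and 62.4 and 85.9 in treated ones. In both genes, and in *Gbp5* and *Gbp9*, replicate 1 was the higher library of each control group and the lower of each TGF-β group. *Gbp4* and *Gbp9* share 23773 annotated bases, and the log2 fold changes of *Gbp4* (-1.74 in WT and -1.02 in RGC-32 KO) were not called. These genes were singled out after their values were seen.

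*Ifih1*, *Parp14*, *Lgals3bp*, *Tap1*, *Tapbp* and *B2m* were higher in replicate 1 than in replicate 2 of all 4 groups, 6 of 42 genes (14.3%) against 2.61% of all genes tested. *H2-K1*, the heavy chain that pairs with *B2m*, did the same, at 943 and 644 CPM in untreated WT cells and 754 and 674 after TGF-β, and at 953 and 639 in untreated knockout cells and 891 and 704 after TGF-β.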
